A study of Mus musculus with 6 samples.

Results

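Interferon-induced genes of the mouse retina were followed one gene at a time through the cell types of 3 single-nucleus libraries. The list holds 47 symbols, of which 45 had a Gene Expression row among the 32285 genes of each count matrix. Mx1 and Mx2 are not analysed here. The members were taken by symbol, not by a limit on any measured value.

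The libraries came from whole retinas of C57BL/6J mice, dissociated with papain before nuclei were extracted with a lysis buffer, and each nucleus was read for RNA and for open chromatin with the 10x Genomics Multiome kit. WIF1-2w and WIF1-4w are retinas taken 2 and 4 weeks after an AAV2/2 vector for Wif1, a secreted Wnt inhibitor, and Ctrl is labelled as naïve wild-type retina. The study's design text names 2 vectors that express Wif1 from the CMV promoter, with and without GFP, and does not say which of them these eyes received. It counts 2 eyes per group, and each group is 1 library, so whether the eyes were pooled and the age of the mice are not given in the sources used here. The same text also names a control vector with GFP and no Wif1, which the label of Ctrl does not mention. If these control eyes received no vector, then the vector, its delivery and Wif1 cannot be told apart in any comparison.

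With 1 library per group there is no replicate error and no test. A level is given in counts-per-million (CPM), the UMIs of a gene over all UMIs of the same class and library, and a ratio between libraries has an exact 95% interval in parentheses that covers counting error only. PCR duplicates were collapsed into UMIs for RNA, but differences between eyes and between nuclei are not in these intervals. A gene was called higher or lower in a class where its ratio was 2-fold or more and it had at least 30 UMIs over the 3 libraries.

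Type I interferons bind the receptor of Ifnar1 and Ifnar2, and the kinases Jak1 and Tyk2 then activate a complex that includes Stat2 and Irf9. That complex binds the interferon-stimulated response element (ISRE) and drives antiviral genes such as the Ifit and Oas families. Type II interferon, the product of Ifng, binds Ifngr1 and Ifngr2 and acts through the gamma-activated site (GAS), which drives Irf1, the guanylate-binding proteins (Gbp genes) and the immunity-related GTPases (Igtp, Irgm and Iigp genes). Many members answer to both kinds, so the split used here goes by the main inducer in textbook accounts. It puts 28 of the members with a row under type I, 14 under type II and 3 (Parp9, Parp14 and Dtx3l) under both. Müller glia, the radial glia that span the retina, are known to answer cytokines and injury.

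The promoters show the letters on which the 2 arms of the pathway act, and those of 6 members to which the results return are printed here. They were taken from RefSeq on build GRCm38.p6, which holds 39 promoters for 34 of the members, each 300 bases long with 50 of them past the gene's start. Capitals mark matches to the ISRE core GAAANNGAA on either strand and to GAS, TTCNNNGAA, which reads alike on both strands, and overlapping matches are joined. Igtp lies at chr11:58199306-58199605 (plus strand), Irgm2 at chr11:58214727-58215026 (plus strand), Irf1 at chr11:53769764-53770063 (plus strand), Gbp5 at chr3:142496684-142496983 (plus strand), Ifit1 at chr19:34640639-34640938 (plus strand) and Isg15 at chr4:156200769-156201068 (minus strand).
Igtp: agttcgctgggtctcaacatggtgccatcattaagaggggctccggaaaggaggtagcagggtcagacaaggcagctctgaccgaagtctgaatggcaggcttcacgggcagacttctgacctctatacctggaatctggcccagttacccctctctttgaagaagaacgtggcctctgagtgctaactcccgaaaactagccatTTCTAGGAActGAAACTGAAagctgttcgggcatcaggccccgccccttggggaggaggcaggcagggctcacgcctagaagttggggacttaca
Irgm2: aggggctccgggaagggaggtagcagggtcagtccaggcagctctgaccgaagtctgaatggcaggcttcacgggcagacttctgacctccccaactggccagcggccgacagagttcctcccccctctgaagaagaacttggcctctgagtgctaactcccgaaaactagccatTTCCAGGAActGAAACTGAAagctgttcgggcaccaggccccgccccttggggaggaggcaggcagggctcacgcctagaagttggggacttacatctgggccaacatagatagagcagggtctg
Irf1: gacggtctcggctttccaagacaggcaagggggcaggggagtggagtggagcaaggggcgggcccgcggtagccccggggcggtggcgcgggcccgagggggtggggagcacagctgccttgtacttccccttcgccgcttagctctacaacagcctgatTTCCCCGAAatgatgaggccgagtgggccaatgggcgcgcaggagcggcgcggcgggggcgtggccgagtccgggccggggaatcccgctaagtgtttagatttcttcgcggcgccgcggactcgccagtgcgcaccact
Gbp5: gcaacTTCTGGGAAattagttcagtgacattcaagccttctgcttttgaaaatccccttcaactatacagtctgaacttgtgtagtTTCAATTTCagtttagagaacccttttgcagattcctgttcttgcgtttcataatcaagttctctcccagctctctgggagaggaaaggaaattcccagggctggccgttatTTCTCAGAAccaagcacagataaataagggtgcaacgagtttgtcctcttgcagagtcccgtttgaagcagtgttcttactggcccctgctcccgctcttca
Ifit1: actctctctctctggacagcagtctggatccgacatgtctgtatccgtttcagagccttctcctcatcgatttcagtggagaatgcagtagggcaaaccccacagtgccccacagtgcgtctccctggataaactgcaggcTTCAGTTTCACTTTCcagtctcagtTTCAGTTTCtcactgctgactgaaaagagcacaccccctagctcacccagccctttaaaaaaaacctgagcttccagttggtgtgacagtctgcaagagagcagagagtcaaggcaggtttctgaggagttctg
Isg15: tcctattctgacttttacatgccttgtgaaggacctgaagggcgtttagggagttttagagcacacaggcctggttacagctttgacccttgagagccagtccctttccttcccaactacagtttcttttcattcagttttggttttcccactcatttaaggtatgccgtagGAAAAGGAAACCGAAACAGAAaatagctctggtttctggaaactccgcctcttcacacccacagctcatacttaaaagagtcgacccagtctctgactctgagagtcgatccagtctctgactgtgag

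Igtp and Irgm2, neighbouring genes for interferon-gamma-induced GTPases, both held GAS followed 2 bases later by an ISRE core, starting 45 bases upstream of the gene's start in Igtp and 75 bases upstream in Irgm2. Irf1, the transcription factor that carries interferon-gamma signals on to further genes, held GAS 90 bases upstream and no ISRE core in its first listed promoter. Gbp5 held GAS 245 and 52 bases upstream. Ifit1, which binds foreign RNA, and Isg15, a ubiquitin-like modifier, held 3 ISRE cores each and no GAS. Of the 39 member promoters, 61.5% held an ISRE core and 28.2% held GAS, against 8.56% and 8.30% of all 32851 promoters in the table. An ISRE core was found in 15 of 23 type I and 8 of 10 type II genes with a promoter here, and GAS in 6 of 23 and 5 of 10. Irf9, Oasl2, Rnf213, Xaf1, Irf7, Dtx3l and Ifi47 held neither set of letters in this window, and a match is a description of letters only.

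Depth and quality differed between the libraries and move with the groups. After filters on UMIs, genes and mitochondrial share and after removal of called doublets, 8829, 8840 and 7157 nuclei were kept in WIF1-2w, WIF1-4w and Ctrl, with median UMIs of 801, 1196.5 and 1634 and a median mitochondrial share of 0.510%, 0.597% and 1.86%. Pairs of libraries shared 142 to 207 barcodes, of which 78 to 116 were among the kept nuclei. Classes were rebuilt by clustering and named from marker genes as Müller-like, bipolar-like and so on, written here as Müller, bipolar and the like. Of the classes with at least 50 nuclei in every library, Müller nuclei numbered 305, 271 and 141, endothelial nuclei 50, 63 and 60, and amacrine nuclei 213, 123 and 374. Bipolar, rod and cone nuclei numbered 377 or more in each library.

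In Müller, bipolar, rod, cone and amacrine nuclei both lists stood higher in WIF1-2w than in Ctrl as a share of RNA, although as UMIs per nucleus the type I sum was no higher in bipolar nuclei, rods and cones. In Müller and bipolar nuclei the type II ratio was the larger, with a counting interval apart from that of type I. These intervals leave out the spread between nuclei. A single Müller nucleus held 19.5%, 15.9% and 45.1% of the type II UMIs of its class in WIF1-2w, WIF1-4w and Ctrl. The 5 highest nuclei for each list held 45.3%, 26.7% and 58.4% of the type II UMIs. For type I they held 20.6%, 20.8% and 44.7%. Summed over all members with a row, type II RNA in Müller nuclei was 910.4 CPM in WIF1-2w, 217 in WIF1-4w and 236 in Ctrl, a WIF1-2w ratio of 3.86 (3.17 to 4.75). Type I RNA there was 1541, 759.7 and 826 CPM, a ratio of 1.87 (1.67 to 2.10). In endothelial nuclei, which had the highest control levels of the 6 classes compared, type I RNA was 3172, 3049 and 3346 CPM and type II RNA 788, 1102 and 1061 CPM, so neither list was higher in WIF1-2w there.

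**Figure D1:**
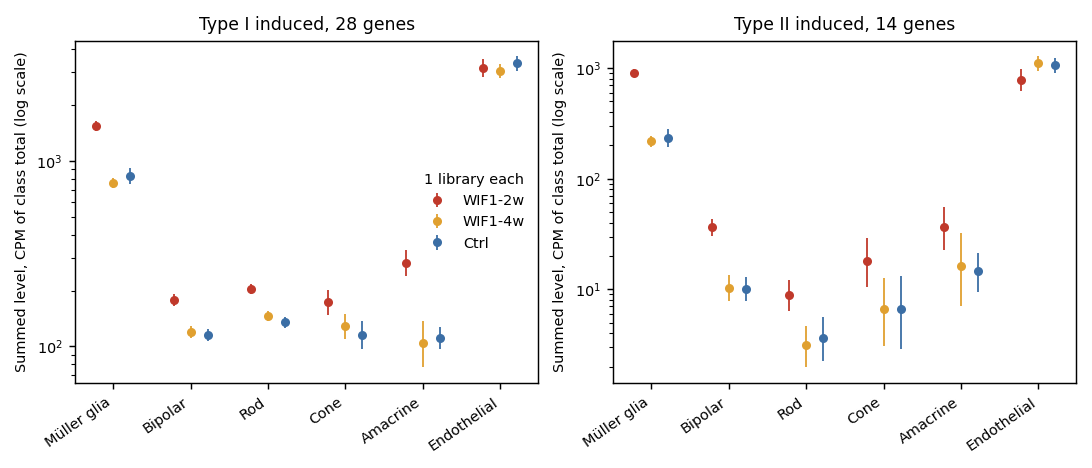
Summed CPM of the class total (log axis) of 28 type I induced genes (left) and 14 type II induced genes (right) in 6 classes, with 1 point per library (WIF1-2w, WIF1-4w, Ctrl) and exact 95% Poisson intervals for counting error. In Müller nuclei the type II sum is 910.4 CPM in WIF1-2w, 217 in WIF1-4w and 236 in Ctrl, while the 3 endothelial points lie close together.

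In bipolar nuclei type II RNA was 36.4 CPM in WIF1-2w, 10.3 in WIF1-4w and 10.2 in Ctrl, a WIF1-2w ratio of 3.58 (2.65 to 4.87), and type I RNA was 178, 119 and 116 CPM, a ratio of 1.54 (1.39 to 1.71). Rods held the least type II RNA, with 8.87, 3.13 and 3.65 CPM, a ratio of 2.43 (1.40 to 4.33), beside type I RNA at 204, 146 and 135 CPM. Cones gave a type I ratio of 1.5 (1.19 to 1.90), and their type II sums rest on 17, 9 and 8 UMIs. Amacrine nuclei had type I RNA at 283, 104 and 111 CPM, a ratio of 2.53 (2.05 to 3.13), and type II sums of 21, 8 and 26 UMIs. These are shares of a class's RNA, and the nuclei of WIF1-2w held fewer UMIs. As UMIs per 100 nuclei the type I sum was not higher in WIF1-2w in bipolar nuclei (42.9, 41.1 and 45.9), rods (15.8, 17.3 and 18) or cones (34.6, 37.5 and 36.9), whereas the type II sum remained higher in bipolar nuclei (8.76, 3.55 and 4.04) and in Müller nuclei (239, 99.6 and 80.1). All genes together had 2406, 3441 and 3970 UMIs per bipolar nucleus and 2626, 4585 and 3401 per Müller nucleus.

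Of the 45 members with a row, 35 reached 30 UMIs in Müller nuclei, and 20 of them were called higher in WIF1-2w than in Ctrl, beside 8.28% of all 10302 genes at that minimum. By list these were 8 of 10 type II members, 9 of 22 type I members and all 3 under both. No member was called lower, beside 9.12% of all genes. A member could reach the minimum through the library in which it is high, so these counts describe the genes that reached it. Median log2 ratios were 2.10 for type II members and 0.91 for type I members, against -0.02 for all genes.

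Irf1 was read by 76, 23 and 10 UMIs in WIF1-2w, WIF1-4w and Ctrl, which is 94.9, 18.5 and 20.9 CPM and a WIF1-2w ratio of 4.55 (2.34 to 9.87). Among the guanylate-binding proteins, GTPases that assemble on the vacuoles of intracellular pathogens, Gbp6 had 108, 46 and 15 UMIs, or 135, 37.0 and 31.3 CPM, a ratio of 4.31 (2.50 to 7.97). Gbp2 had 85, 28 and 12 UMIs, or 106, 22.5 and 25.0 CPM, a ratio of 4.24 (2.31 to 8.53). With all nuclei, each of these 3 genes was high in WIF1-2w alone and about level between WIF1-4w and Ctrl. Most of the 12 control UMIs of Gbp2 came from the leading control nucleus, and without the leading nuclei Gbp2 was higher in WIF1-4w than in Ctrl. Gbp3 had 31, 12 and 3 UMIs and Gbp5 32, 21 and 4, ratios of 6.19 (1.93 to 31.6) and 4.79 (1.70 to 18.6) that rest on 3 and 4 control UMIs. A single nucleus held 19 of the WIF1-2w UMIs of Gbp5, and without it the ratio was 1.96 (0.605 to 8.25), below the limit. Gbp7 was not called, at 64, 59 and 22 UMIs and a ratio of 1.74 (1.06 to 2.97).

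Of the 4 immunity-related GTPases at the minimum, Igtp, Irgm2 and Iigp1 were called higher. Igtp, with GAS and ISRE core side by side in its promoter, had 116, 34 and 18 UMIs, or 145, 27.4 and 37.5 CPM, a ratio of 3.86 (2.34 to 6.74), and its neighbour Irgm2 had 49, 10 and 7 UMIs, or 61.2, 8.05 and 14.6 CPM, a ratio of 4.19 (1.89 to 11.0). Iigp1 had the widest gap of the called members, with 52, 3 and 4 UMIs, or 64.9, 2.41 and 8.34 CPM, a ratio of 7.79 (2.86 to 29.6). Irgm1, a regulator of this GTPase family, fell just short of the 2-fold limit with 42, 13 and 13 UMIs and a ratio of 1.93 (1.02 to 3.93). Under the minimum lay Gbp4 with 24, 4 and 0 UMIs, Ifi47 with 26, 2 and 0, Gbp9 with 13, 5 and 2 and Socs1, a brake on Janus kinases, with 11, 10 and 3. Against the limit of 3 counts that a control count of 0 allows, the observed WIF1-2w counts give 4.79-fold for Gbp4 and 5.19-fold for Ifi47. Counting error of the WIF1-2w counts is not in these values. Gbp and immunity-related GTPase genes include close copies, as do Ifit3 and Ifit3b, so reads may have been lost or split between them.

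Of the 22 type I members at the minimum, 9 were called higher in Müller nuclei and 13 were not. Oasl2, an antiviral member of the oligoadenylate synthetase family, had the most RNA, with 169, 107 and 34 UMIs, or 211, 86.1 and 70.9 CPM in WIF1-2w, WIF1-4w and Ctrl, a WIF1-2w ratio of 2.98 (2.05 to 4.44). Irf9, the DNA-binding part of the type I complex, had 38, 29 and 7 UMIs, a ratio of 3.25 (1.43 to 8.63), and its partner Stat2 had 62, 34 and 15 UMIs, a ratio of 2.48 (1.39 to 4.69). Usp18, which removes Isg15 and shuts off the receptor, had 28, 15 and 3 UMIs, a ratio of 5.59 (1.73 to 28.7). All 4 were higher in WIF1-2w than in either other library. Ifit1 at 3.50 (1.93 to 6.88), Rnf213 at 2.96 (1.77 to 5.22), Ifi27 at 2.40 (1.5 to 3.97) and the nucleotide hydrolase Samhd1 at 2.32 (1.30 to 4.40) were also called. Isg15 had 34, 18 and 10 UMIs, and its ratio of 2.04 (0.984 to 4.62) has an interval that takes in 1. Without the nucleus that held most Isg15 UMIs in WIF1-2w, it was 1.81 (0.862 to 4.15).

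The 13 type I members that reached the minimum and were not called lay between Ifit2 at 0.823 (0.302 to 2.36) and Trim25 at 1.92 (0.919 to 4.37). The RNA sensors of the list were among them, with Ifih1 at 0.885 (0.507 to 1.57) and Ddx58 at 1.54 (0.811 to 3.09). Eif2ak2, the kinase that halts translation on double-stranded RNA, stood at 1.27 (0.775 to 2.13), and Bst2, which tethers budding virions, at 1.86 (1.20 to 2.99). Oas1a, Oas2, Oas3, Ifi44, Dhx58 and Zbp1 had 0 to 8 UMIs in any library, and Oas3 had 0 in all 3. Of the members under both interferons, Parp14 had 84, 44 and 20 UMIs, a ratio of 2.52 (1.53 to 4.33), and Parp9 and its partner ubiquitin ligase Dtx3l stood at 2.40 (1.25 to 4.95) and 2.48 (1.06 to 6.71).

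**Figure D2:**
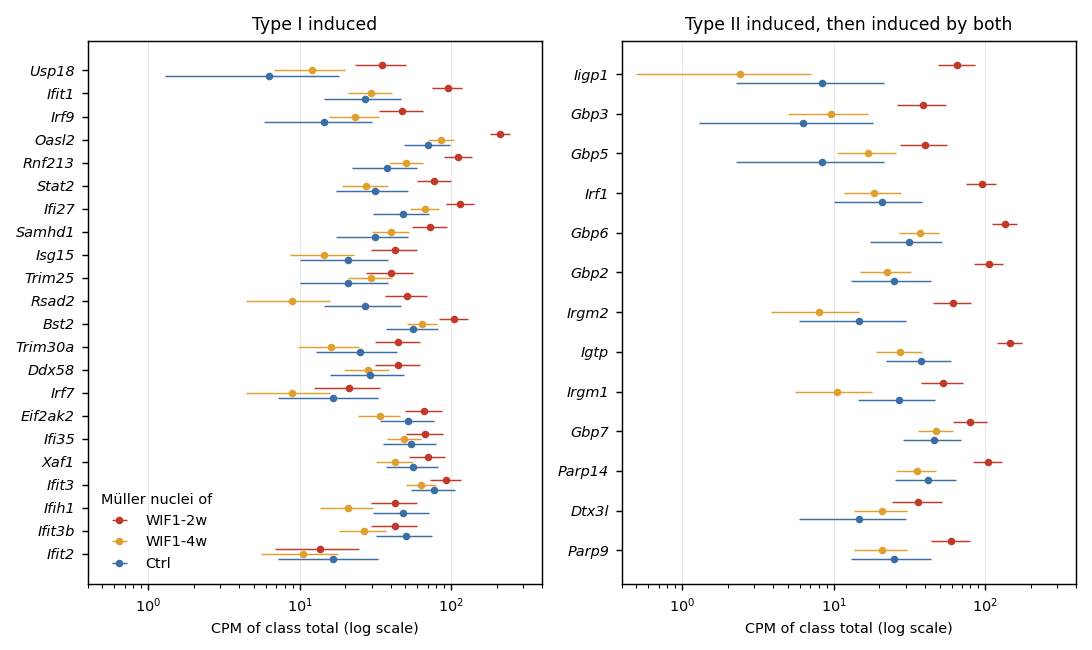
CPM of the class total (log axis) of the 35 members with at least 30 UMIs in Müller nuclei, type I induced on the left and type II induced and then induced by both on the right, ordered by the ratio of WIF1-2w over Ctrl. Points are WIF1-2w, WIF1-4w and Ctrl, 1 library each, and bars are exact 95% Poisson intervals; Irf1 lies at 94.9, 18.5 and 20.9 CPM.

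Values of other kinds moved with these ratios, and their part in the result was not tested. Rod marker RNA in Müller nuclei, of which all 10 genes were detected in each library, was 2298 CPM in WIF1-2w, 7619.9 in WIF1-4w and 9725 in Ctrl. In the 281, 222 and 84 nuclei with at most 1% of their UMIs in rod markers, a limit set after the data were seen, type II RNA was 884, 307 and 311 CPM and type I RNA 1549.7, 1023 and 1055 CPM. Microglia and macrophage markers were detected for 5, 7 and 4 of 10 genes at 99.9, 99.0 and 66.7 CPM, with Aif1, Tmem119 and Ptprc at 0 in all 3 libraries. B and plasma cell markers were detected for 6, 5 and 3 of 10 genes at 164, 74.8 and 75.1 CPM, with Mzb1 at 0 in all 3 and Igkc and Ighm seen in WIF1-2w alone. Lymphocyte markers summed to 5, 3.22 and 4.17 CPM, with Cd3e and Cd3g at 0 throughout. Endothelial markers stood at 1952, 1559 and 1608 CPM, with 6, 8 and 7 of 10 detected. Retinal pigment epithelium markers summed to 4970.1, 3140.3 and 3186 CPM, with 6, 5 and 3 of 6 detected, and amacrine markers to 1056, 623 and 644 CPM, with 5, 7 and 5 of 10 detected. Median mitochondrial shares of the Müller nuclei were 0.443%, 0.543% and 1.64%, and 1 cluster held 100%, 94.5% and 98.6% of these nuclei. The rest, 15 of WIF1-4w and 2 of Ctrl, came from a cluster in which 48.5% of nuclei were called doublets and removed. Müller markers were level, at 21308, 19978 and 20635 CPM, all 10 detected. Without nuclei that held an immune marker UMI, 28 members reached the minimum and 11 were called higher, with no share of all genes counted for that setting.

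Single nuclei carried much of this RNA, in Ctrl most of all. The leading control Müller nucleus held 192 member UMIs of its 4356 UMIs, 35% of all member UMIs of the control class, and the next held 19. It had 131 type I and 51 type II UMIs, among them 24 of Ifit3, 12 of Rsad2 and 11 each of Ifit1, Oasl2 and Igtp, all 10 Müller markers and no immune or rod marker UMI. In WIF1-2w the leading nucleus held 184 member UMIs, with 35 of type I and 142 of type II, led by 27 of Igtp, 22 of Gbp2 and 21 of Irf1. That nucleus made up 8.66% of the member UMIs of its class, and the leading nucleus of WIF1-4w 4.43%. Nuclei with 20 or more type I and type II UMIs numbered 15 in WIF1-2w, 11 in WIF1-4w and 1 in Ctrl.

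The balance of the 2 lists differed between such nuclei. In WIF1-2w 4 of the 15 held more type II than type I UMIs, in WIF1-4w 1 of 11 did, and the control nucleus did not. The third nucleus of WIF1-2w by member UMIs was of the opposite kind, with 72 type I UMIs against 15 of type II, led by 10 of Ifit3. Gbp5 in WIF1-4w came almost wholly from the type II-led nucleus, with 19 of its 21 UMIs. Among endothelial nuclei at the same limit, 4 in WIF1-2w, 5 in WIF1-4w and 7 in Ctrl, none held more type II than type I UMIs.

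**Figure D3:**
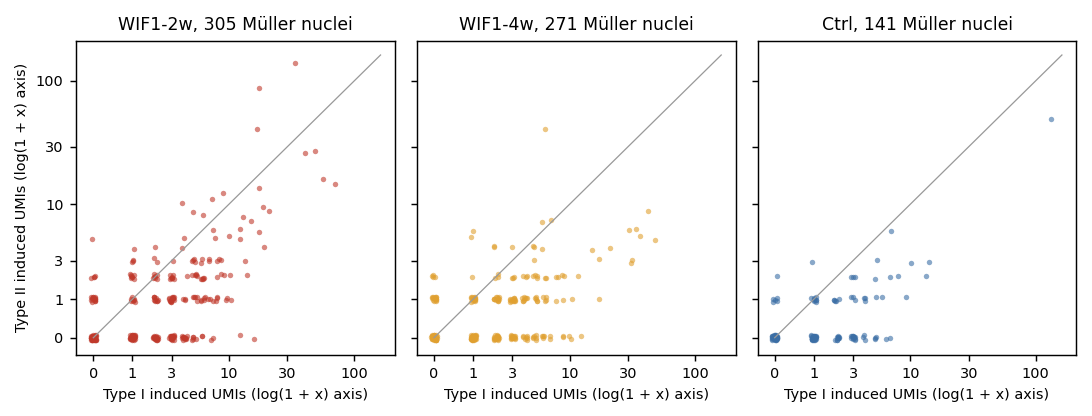
Type II induced UMIs against type I induced UMIs in each Müller nucleus (log(1 + x) axes with slight jitter), for 305 nuclei of WIF1-2w, 271 of WIF1-4w and 141 of Ctrl, with the line of equal counts. Type II-led nuclei lie above the line and stand out in WIF1-2w, and the single control nucleus at upper right holds 131 type I and 51 type II UMIs.

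With the leading nucleus of each library left out, the Müller type II sum was 739 CPM in WIF1-2w, 214 in WIF1-4w and 130.5 in Ctrl, a WIF1-2w ratio of 5.66 (4.35 to 7.48), and the type I sum was 1509, 722 and 558 CPM, a ratio of 2.71 (2.37 to 3.10). Both ratios were larger without these nuclei, and several genes turn on the control nucleus. The nuclei were chosen by their member UMIs, which were 35% of those of the class in Ctrl and 8.66% in WIF1-2w. Leaving out a larger share in Ctrl raises the summed ratios by itself. Ifit1 without these nuclei had 76, 28 and 2 UMIs, Gbp2 63, 28 and 2, Rsad2 41, 11 and 1, and Igtp 89, 34 and 7. Ifit3, level with all nuclei, then had 72, 68 and 13 UMIs, a ratio of 3.31 (1.82 to 6.52). Iigp1 and Usp18 then had 0 control UMIs beside 34 and 24 in WIF1-2w. Ifit3, Ifit3b, Rsad2, Trim30a, Bst2 and Irgm1, not called with all nuclei, then passed 2-fold, and 26 of 35 members were called higher. The share of all genes called higher without these nuclei was not counted. Irf1 kept all 10 control UMIs and lost 21 of 76 in WIF1-2w, a ratio of 3.29 (1.66 to 7.24). The shares of nuclei with a type II UMI, each nucleus thinned to 1000 UMIs, were 35% in WIF1-2w, 16.3% in WIF1-4w and 9.29% in Ctrl, leaving out 25, 8 and 1 shallower nuclei; unthinned they were 53.1%, 45.8% and 29.8%. Thinned bipolar nuclei gave 3.76%, 1.01% and 0.614%.

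At 4 weeks the members stood near the control level in Müller nuclei when all nuclei were counted. WIF1-4w had 1 member called higher than Ctrl, Gbp5, beside 5.11% of all genes, and 4 called lower, beside 1.88%. These were Rsad2 at 0.327 (0.132 to 0.790), Ifih1 at 0.436 (0.239 to 0.8), Irgm1 at 0.386 (0.165 to 0.904) and Iigp1 at 0.289 (0.0424 to 1.71), and the leading control nucleus held 92.3% of the control UMIs of Rsad2 and all 4 of Iigp1. Without the nucleus that held most of a member's UMIs in its higher library, none of these 5 calls remained. Summed over the lists the WIF1-4w ratio was 0.920 (0.817 to 1.04) for type I and 0.922 (0.738 to 1.16) for type II. Without the leading nuclei the ratios were 1.30 (1.13 to 1.49) and 1.64 (1.24 to 2.20), so the side of the control level on which they lie turns on these nuclei.

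Against WIF1-2w, WIF1-4w had 22 of 35 members called lower in Müller nuclei, beside 4.82% of all genes. They comprised 9 of 10 type II, 11 of 22 type I and 2 of 3 members under both. Iigp1 had 2.41 CPM in WIF1-4w against 64.9 CPM in WIF1-2w, a ratio of 0.0372 (0.00743 to 0.115), and Irgm2 had 8.05 against 61.2 CPM, a ratio of 0.132 (0.0594 to 0.263). Irf1 had 18.5 against 94.9 CPM, a ratio of 0.195 (0.117 to 0.314). Median log2 ratios were -2.28 for type II and -1 for type I members, against 0.01 for all genes. Among nuclei with at most 1% rod marker UMIs, 14 members were called lower, and the share of all genes there was not counted.

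In bipolar nuclei 18 members reached the minimum, and 9 were called higher in WIF1-2w than in Ctrl, beside 2.78% of all genes. The 3 type II members among them were Irf1 with 26, 13 and 10 UMIs in WIF1-2w, WIF1-4w and Ctrl, Igtp with 46, 15 and 23 and Gbp7 with 21, 8 and 12. Their ratios were 4.45 (2.08 to 10.3), 3.42 (2.03 to 5.92) and 3 (1.41 to 6.68). Of 14 type I members 6 were called, namely Ifit1 at 3.19 (1.65 to 6.44), Isg15 at 2.47 (0.978 to 6.55), Xaf1 at 2.47 (1.30 to 4.79), Irf9 at 2.36 (1.30 to 4.36), Ifi27 at 2.22 (1.30 to 3.81) and Ifi35 at 2.08 (0.964 to 4.55). The most abundant members there, Samhd1 with 157, 167 and 190 UMIs and Stat2 with 134, 160 and 158, had ratios of 1.41 (1.14 to 1.76) and 1.45 (1.14 to 1.84) and were not called. Counted as UMIs per nucleus, 2 of the 18 members were called, and the share of all genes on that scale was not counted. Without the nucleus with the most UMIs of each member in WIF1-2w, Isg15, Xaf1 and Ifi35 fell below the limit, at ratios of 1.71 (0.602 to 4.87), 1.90 (0.956 to 3.82) and 1.96 (0.896 to 4.33), and the other 6 calls remained. In WIF1-4w no member was called higher than in Ctrl, beside 0.508% of all genes, and Ifi35 alone was called lower, beside 1.64%.

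Markers of other cell types moved with the bipolar values too. B and plasma cell markers summed to 798 CPM in WIF1-2w, 111 in WIF1-4w and 112 in Ctrl, with 10, 6 and 5 of 10 detected. Lymphocyte markers stood at 10.02, 4.35 and 2.93 CPM, with 8, 6 and 5 of 11 detected and Cd3e at 0 throughout. Microglia and macrophage markers stood at 64.3, 45.4 and 46.4 CPM, with Aif1 at 0 throughout, and rod markers at 2316, 2441 and 5014 CPM. Among nuclei without an immune marker UMI, 11 members reached the minimum and 6 were called higher, with no share of all genes counted for that setting. The part of these cell types in the bipolar values was otherwise not tested.

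Rods and cones gave few calls. In rods 2 of 10 members were called higher in WIF1-2w, beside 4.75% of all genes, Bst2 with 34, 12 and 12 UMIs and Irf9 with 53, 45 and 27, ratios of 3.53 (1.78 to 7.48) and 2.44 (1.51 to 4.04). Different clusters held most rods of the 2 libraries: clusters 14 and 16 took 13.6% and 13.7% of those of WIF1-2w and 0.694% and 0.602% of those of Ctrl, and clusters 12 and 6 took 1.84% and 1.44% in WIF1-2w and 19.4% and 15.8% in Ctrl. In cones 2 of 6 were called, beside 4.57% of all genes, Trim25 with 37, 31 and 19 UMIs, a ratio of 2.49 (1.40 to 4.59), and Samhd1 with 60, 50 and 34, a ratio of 2.26 (1.46 to 3.55). Counted as UMIs per nucleus, 1 of the 10 rod members was called higher and 1 lower, and none of the 6 cone members was called higher. The shares of all genes on that scale were not counted.

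The same marker lists were higher in the WIF1-2w rods and cones, and their part in the result was not tested. In rods B and plasma cell markers summed to 1235 CPM in WIF1-2w, 81.8 in WIF1-4w and 68.6 in Ctrl, with 10, 5 and 6 of 10 detected. Lymphocyte markers there stood at 10.2, 2.58 and 1.91 CPM and microglia and macrophage markers at 66.2, 40.9 and 36.3 CPM. In cones B and plasma cell markers summed to 500.6, 217 and 212 CPM, with 7, 5 and 3 of 10 detected, lymphocyte markers to 21.3, 6.70 and 16.6 CPM and microglia and macrophage markers to 45.7, 27.5 and 22.4 CPM.

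Amacrine nuclei had only Stat2 and Samhd1 at the minimum, neither called, beside 3.46% of all genes called higher. Below the minimum, Ifit1 had 24, 1 and 2 UMIs, a ratio of 37.5 (9.32 to 328), and Usp18 11, 2 and 2, a ratio of 17.2 (3.76 to 159.8). Both ratios rest on 2 control UMIs and are not calls, and the other members under the minimum are not listed. A single nucleus held 9.88% of the type I UMIs of the WIF1-2w amacrine nuclei, and the 5 highest held 32.1%. The highest amacrine nucleus of WIF1-2w held 20 member UMIs. The clusters that make up the class differed between libraries. A cluster with 10.2% of the control amacrine nuclei had none of WIF1-2w or WIF1-4w, another held 3.76%, 3.25% and 12.8% of the class in WIF1-2w, WIF1-4w and Ctrl, and a smaller one 0.939% in WIF1-2w and 7.49% in Ctrl. B and plasma cell markers in amacrine nuclei summed to 256, 89.8 and 68.0 CPM, with 6, 2 and 4 of 10 detected. Lymphocyte markers stood at 17.4, 2.04 and 5.57 CPM, microglia and macrophage markers at 124, 71.4 and 68.6 CPM and rod markers at 2717, 3829 and 5735 CPM. The part of these markers and clusters in the amacrine values was not tested.

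Endothelial nuclei were the richest class in Ctrl. No member of the 24 at the minimum was called higher in WIF1-2w, beside 6.14% of all genes, and 3 were called lower, beside 9.55%. Ifit1 had 11, 20 and 45 UMIs, a ratio of 0.380 (0.177 to 0.747), Ifit3 8, 14 and 27, a ratio of 0.461 (0.181 to 1.04), and Irf1 4, 17 and 15, a ratio of 0.415 (0.100 to 1.30). The interval of Ifit1 alone lies below 1. Single control nuclei carry these calls. One control nucleus held 15 of the 45 Ifit1 UMIs, and without it Ifit1 stood at 0.555 (0.251 to 1.14), above the limit. Ifit3 and Irf1, each without the control nucleus that held most of it, stood at 0.675 (0.254 to 1.63) and 0.505 (0.119 to 1.67), so none of the 3 calls remained. Without the nuclei that lead in all members together, among which the control nucleus held 5 Ifit1 UMIs, Ifit1 had 8, 15 and 40 UMIs, a ratio of 0.298 (0.120 to 0.645). Counted as UMIs per nucleus, 7 of the 24 members were called lower. All genes together had 1879 UMIs per endothelial nucleus in WIF1-2w and 2436 in Ctrl, and the share of all genes called lower on this scale was not counted. Pericyte and smooth muscle markers in these nuclei summed to 10.6 CPM in WIF1-2w, 64.1 in WIF1-4w and 623 in Ctrl, with 1, 2 and 8 of 8 detected. Rod markers stood at 3715, 6848 and 6035 CPM, all 10 detected, and lymphocyte markers at 42.6, 12.8 and 0 CPM. Their part in the endothelial values was not tested.

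Other genes of the pathway were read for their parts upstream and downstream of the members. Interferon genes themselves were barely seen in Müller nuclei, with 3, 0 and 1 UMIs over 10 ligand genes. None of the 8 receptor and kinase genes at the minimum was called, among them Ifnar1 at 0.851 (0.456 to 1.62), Ifnar2 at 1.21 (0.845 to 1.76), Ifngr1 at 0.998 (0.637 to 1.59) and Jak2 at 1.05 (0.655 to 1.72). Nlrc5, the transactivator of MHC class I genes, had 69, 7 and 10 UMIs in WIF1-2w, WIF1-4w and Ctrl, a WIF1-2w ratio of 4.13 (2.12 to 9). B2m, the MHC class I light chain, had 1185, 362 and 117 UMIs, a ratio of 6.07 (5.01 to 7.40). In all, 9 of 26 other pathway genes at the minimum were called higher in Müller nuclei, beside 8.28% of all genes, and 0 lower, beside 9.12%. In bipolar nuclei 7 of 26 were called higher, beside 2.78% of all genes, and 1, Aim2 with 24, 69 and 101 UMIs, lower, beside 3.29% of all genes lower, and B2m had 377, 28 and 33 UMIs there, a ratio of 19.6 (13.7 to 28.8) that is larger than that of any called member of the list.

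Open chromatin was read at peaks within 1000 bp of each gene's start. Peaks were called in each library on its own, and 40, 32 and 28 of the members had a promoter peak in WIF1-2w, WIF1-4w and Ctrl, beside 18079, 16788 and 15856 of all genes. Promoter peaks of 8 members were called in WIF1-2w alone, those of the type II members Gbp2, Gbp4, Gbp6, Gbp9, Iigp1 and Ifi47 and of Dhx58 and Trim30a. They are 47.1% of the 17 members without a control peak, beside 8.26% of all genes without one. Ifi27, Ddx58, Xaf1 and Gbp5 had a peak in WIF1-2w and WIF1-4w and none in Ctrl. Isg15, Oas1a, Oas2, Oas3 and Ifi44 had none in any library. The WIF1-2w library held 90490537 ATAC counts, against 71304238 in WIF1-4w and 37525307 in Ctrl, and the part of this depth in the number of peaks was not tested.

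For the 28 members with a promoter peak in all 3 libraries, counts in Müller nuclei were set against all promoter counts of the class. In WIF1-2w 11 of the 28 were called higher than in Ctrl, beside 6.47% of all genes, and 0 lower, beside 8.16%. These were 7 of 18 type I and 4 of 7 type II members. Irf9 had 113, 94 and 10 counts, or 85.1, 38.1 and 21.1 CPM of all promoter counts in WIF1-2w, WIF1-4w and Ctrl, a WIF1-2w ratio of 4.03 (2.11 to 8.64). Oasl2 had 48, 30 and 4 counts, a ratio of 4.28 (1.57 to 16.4), and Irgm2 75, 39 and 12, a ratio of 2.23 (1.20 to 4.51). Irgm2 shares a promoter peak with Igtp, but the summed promoter counts of these genes differ, and the promoter of Igtp was not called. Oasl2 and Irf9 are the 2 highest of the 28, and neither promoter held a GAS or ISRE core match. Irgm1 had 82, 25 and 8 counts and Gbp3 39, 35 and 6, but their called peaks spanned 1551 and 1552 bp in WIF1-2w against 780.0 and 796 bp in Ctrl. Irf1 stood at 1.83 (1.16 to 3) and Samhd1 at 0.730 (0.504 to 1.07).

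**Figure D4:**
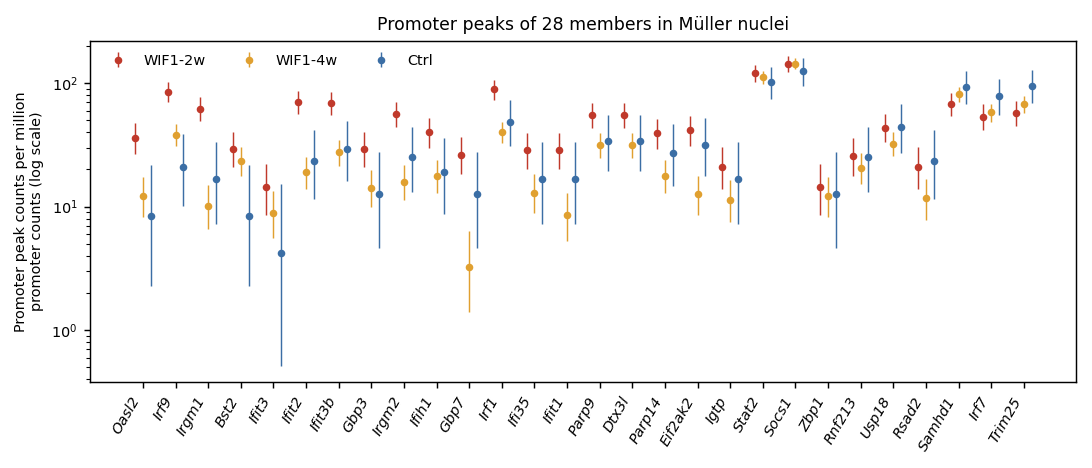
Promoter peak counts as CPM of all promoter counts (log axis) in Müller nuclei for the 28 members with a peak in all 3 libraries, ordered by the ratio of WIF1-2w over Ctrl. Points are WIF1-2w, WIF1-4w and Ctrl, 1 library each, and bars are exact 95% Poisson intervals; Irf9 lies at 85.1, 38.1 and 21.1.

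In WIF1-4w 14 of these 28 promoters were called lower than in WIF1-2w in Müller nuclei, beside 8.16% of all genes. They include Ifit2, Irf1, Irgm1 and Oasl2. The promoter of Ifit2, an RNA-binding relative of Ifit1, had 70.1, 19.0 and 23.2 CPM of promoter counts in WIF1-2w, WIF1-4w and Ctrl, although its RNA rests on 11, 13 and 8 UMIs.

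RNA and promoter did not rank the members alike. Of 26 members with both readings in Müller nuclei, Irf9, Oasl2, Gbp3 and Irgm2 were called higher in WIF1-2w in both, 10 in RNA alone and 7 at the promoter alone. Stat2, Usp18, Igtp and Samhd1 were among those in RNA alone, and Ifit2, Ifit3, Bst2 and Irgm1 among those at the promoter alone. This split and the correlations that follow use all nuclei. Without the leading nucleus of each library, Ifit3, Ifit3b, Bst2 and Irgm1, here at the promoter alone, also passed 2-fold in RNA. Across the 26 genes, which share libraries, nuclei and depth, Spearman's rho between the log2 ratios was -0.051 and Pearson's r -0.052. The RNA ratio of Igtp was 3.86 (2.34 to 6.74) and its promoter ratio 1.25 (0.555 to 3.17).

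Promoters in other classes gave fewer calls in number, and the share of all genes called higher there was also below the 6.47% of Müller nuclei. Bipolar nuclei had 5 of 28 called higher in WIF1-2w, beside 1.35% of all genes, led by Usp18 with 310, 119 and 63 counts, a ratio of 3.46 (2.63 to 4.61). Irgm1 had 210, 80 and 67 counts there, a ratio of 2.21 (1.67 to 2.95). In rods 4 of 27 were called higher, beside 1.44% of all genes, and 5 lower, beside 9.71%. Irf1 had 347, 126 and 45 counts in rods, a ratio of 3 (2.20 to 4.19), and Usp18 486, 164 and 74, a ratio of 2.56 (2.00 to 3.31). Usp18 was called in rod and bipolar promoters and stood at 0.986 (0.589 to 1.71) in Müller nuclei, and Irgm1 was called in all 3 classes. In endothelial nuclei, where no member's RNA was called higher, 5 of 23 promoters were called higher in WIF1-2w, beside 6.04% of all genes, and all 5 belong to type I members. They were Irf9 with 52, 27 and 19 counts in WIF1-2w, WIF1-4w and Ctrl, a ratio of 2.08 (1.21 to 3.73), Usp18 at 2.09 (1.05 to 4.45), Ifi35 at 2.16 (0.811 to 6.68), Trim25 at 3.61 (1.66 to 8.97) and the nucleic acid sensor Zbp1 at 2.70 (1.36 to 5.84). Igtp alone was called lower, with 8, 8 and 16 counts and a ratio of 0.381 (0.141 to 0.942), beside 7.07%.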

How the data were processed

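The submitters' processing notes name Cell Ranger ARC 2.0.1, Seurat 5.0.1, Signac 1.12.0 and build mm10. Per the file headers, the authors deposited matrices of raw counts made with Cell Ranger ARC 2.0.1, with UMIs for genes and ATAC counts for peaks. The step that set the lowest barcode depth, 7, 300 and 500 UMIs in WIF1-2w, WIF1-4w and Ctrl, is not given in the sources used here. No columns of other samples were present.

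Barcodes with at least 500 UMIs and 300 genes and at most 10% mitochondrial UMIs were kept, 9901, 9637 and 7683. Of these, the 1072, 797 and 526 with the highest Scrublet scores (scanpy 1.11.5) were called doublets and removed. These numbers were set beforehand by a rate of 0.8% per 1000 barcodes of the matrix. Nuclei were clustered on 2000 variable genes and 30 principal components (Leiden, resolution 1) and named from at least 3 markers. UMIs were summed by class and library and compared as CPM of the class total, without a test, since each group is 1 library of 8829, 8840 or 7157 nuclei. Intervals are exact (binomial for ratios, Poisson for levels, Clopper-Pearson for shares) at 95% and cover counting error only. Calls need a 2-fold ratio and 30 UMIs over the libraries. Every member may be named, and those called are given first. Promoter counts sum the counts of peaks lying at most 1000 bp from a gene's start sites, as CPM of all promoter counts of the class, for genes with at least 30 counts and a peak in every library. Scripts were checked on simulated data. The members, lists, markers and limits were chosen with earlier results of these data known. Alternatives were other scalings, minimum counts, fold limits, nucleus filters and naming, and leaving out leading nuclei, over all members or for each member. Spatial data of the study were not used here.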

Additional observations from a re-analysis of the deposited data

Results flagged for a closer look

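Iigp1 in Müller nuclei and Ifi35 in bipolar nuclei were called higher in WIF1-2w and lower in WIF1-4w, each against the same Ctrl library. Iigp1 had a log2 ratio of 2.96 in WIF1-2w and -1.79 in WIF1-4w, from 52, 3 and 4 UMIs in WIF1-2w, WIF1-4w and Ctrl, and all 4 control UMIs came from 1 nucleus. Ifi35 had a log2 ratio of 1.06 in WIF1-2w and -1.99 in WIF1-4w, from 17, 3 and 14 UMIs. The difference between the 2 time points against Ctrl was not tested for either gene.

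Member RNA was also present outside the classes compared. In barcodes that the filters left out, 3627, 697 and 873 in WIF1-2w, WIF1-4w and Ctrl, type I RNA was 238, 128 and 119.7 CPM and type II RNA 31.1, 14 and 11.7 CPM. Microglia or macrophage nuclei, of which WIF1-4w and Ctrl had too few for a comparison, numbered 52, 15 and 14. They held type I RNA at 3137, 1146 and 864 CPM and type II RNA at 554, 98.3 and 99.7 CPM, the type II sum from 48, 3 and 3 UMIs. Those of WIF1-2w lay mostly in other clusters than those of WIF1-4w and Ctrl. These differences have no replicate and were not tested.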

How the results depend on the processing

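No paired analysis was possible because each group is 1 library and no result comes from a test. The 20 members called higher in Müller nuclei in WIF1-2w became 13 as UMIs per nucleus, 11 at a minimum of 100 UMIs (of 17 members reaching it), 11 at a 3-fold limit, 11 without nuclei with an immune marker UMI (of 28) and 3 with nuclei thinned to 500 UMIs (of 3). The 22 called lower there in WIF1-4w against WIF1-2w became 9, 9, 10, 12 and 2 under the same alternatives, and 14 in nuclei with at most 1% rod marker UMIs, an alternative chosen after seeing the data. The 9 called higher in bipolar nuclei in WIF1-2w became 2 as UMIs per nucleus, 21 at a minimum of 10 UMIs (of 32), 21 with no minimum (of 42), 0 at a minimum of 100 UMIs (of 5), 3 at a 3-fold limit, 5 with classes named by the highest marker score (of 10) and 1 after thinning (of 2). The median log2 ratio of type I members in Müller nuclei in WIF1-2w, 0.91, became 1.49 without the leading nucleus of each library. Without the nucleus with the most UMIs of each member in its higher library, an alternative also chosen after seeing the data, the Müller counts of 20 and 22 became 18 and 19, the bipolar count of 9 became 6, and the 3 endothelial calls lower became 0. Promoters called higher in Müller nuclei in WIF1-2w, 11, became 5 against all ATAC counts. In endothelial nuclei the type II median of WIF1-4w over WIF1-2w, 1.115 over 7 members, turned to -0.11 over 4 without the leading nuclei. Fewer members were tested at higher minimums and after thinning, and the cause of the changes under any of these alternatives was not tested. The share of all genes called was counted for the reported setting alone. The remaining comparisons of these kinds in each class gave 370 counts within 1.5 times of the reported value and 158 outside, and 221 medians that stayed within its spread against 19 that moved. Müller depth per nucleus, 141 control nuclei and counting intervals limit what genes under 30 UMIs can show.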

Other observations

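Smaller classes are given as levels only. Pericyte nuclei, 39, 43 and 39 in WIF1-2w, WIF1-4w and Ctrl, held type I RNA at 1232, 539 and 629.8 CPM and type II RNA at 216, 98.8 and 104 CPM. Lymphocyte nuclei numbered 31 in WIF1-2w, 0 in WIF1-4w and 1 in Ctrl, and those of WIF1-2w held type I RNA at 2909 CPM and type II RNA at 1315 CPM. Horizontal nuclei, 20 in WIF1-2w and 26 in Ctrl, held type I RNA at 104 and 242 CPM.

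Ifng, the gene of type II interferon, had 1 UMI in the rods of WIF1-2w and 0 in every other class and library read here. Without the leading Müller nuclei, Ifit3b, the close copy of Ifit3, had 34, 30 and 7 UMIs in WIF1-2w, WIF1-4w and Ctrl, and Oasl2 had 166, 99 and 23, a WIF1-2w ratio of 4.32 (2.78 to 7).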
